A study of Drosophila melanogaster with 15 samples.

Results

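Tiggrin (Tig), the secreted protein Swim and 5 integrin subunits (mys, Itgbn, if, mew and scb) were followed by array in Drosophila melanogaster wing discs. These are sheets of larval epithelium from which the adult wing and back of the thorax develop. Members were the probe sets annotated to these 7 genes alone, and all 7 genes had at least 1, with 9 probe sets in all, among 11982 genes measured. mys and mew had 2 probe sets each and the other 5 genes had 1 each. The knockdown discs (avl-RNAi) came from w- larvae heterozygous for elav-GAL80 and for a chromosome with Rn-GAL4 and UAS Avl RNAi, at 92, 116 or 168 h after egg deposition. The control discs came from w- larvae heterozygous for elav-GAL80 and Rn-GAL4 alone, at 92 or 116 h, and the background was w1118 throughout. Each of the 5 groups had 3 arrays from separately collected samples, and no control was sampled at 168 h. The RNAi construct targets avl, the gene of an early endosomal syntaxin, and the labels call the knockdown discs neoplastic and the control discs wild type. Both genotypes carried the rn-GAL4 driver, which acts in the wing pouch, and elav-GAL80, which blocks GAL4 in neurons. A knockdown disc therefore also held cells in which the driver was not active, and the controls lacked the RNAi construct itself. The labels do not say how many discs or larvae went into a sample.

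Integrins are membrane receptors built of an alpha and a beta subunit. They bind the extracellular matrix outside the cell, and inside the cell they are tied to actin through talin and its partners. In Drosophila mys encodes the main beta subunit, βPS, and Itgbn the other one, βν. mew encodes αPS1, a laminin receptor subunit found on the dorsal side of the wing pouch. if encodes αPS2, which binds ligands with an RGD motif, tiggrin among them, and is found on the ventral side. scb encodes αPS3. Tig is made by haemocytes and fat body and is laid down at muscle attachments. Swim is a secreted protein reported to bind Wingless.

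The values were log2 expression values that the authors had normalized between arrays, and the median of an array over all probe sets lay between 4.74 and 4.79. Transcripts of other larval tissues came along with the discs and varied between arrays. The gut marker mean, over 14 genes, was 7.36 and 7.06 in control discs at 92 h on replicates 1 and 2 but 5.16 on replicate 3, and 7.16 in control discs at 116 h on replicate 2, with a lowest value of 4.90 on replicate 3. In avl-RNAi discs the gut mean was 7.51, 6.26 and 6.63 at 92 h. It lay between 5.33 and 5.43 at 116 h and between 4.71 and 4.83 at 168 h. Of 12 wing disc markers 10 were measured, and their mean lay between 8.999 and 9.56 on every array. At 116 h 0 of the 10 rose and 7 fell in avl-RNAi discs, where 12.6% of all genes rose and 19.1% fell. Their median difference was -0.34. The falls included pnr (-1.06), ara (-0.85) and vg (-0.67), named after their values were seen. The part of this shift in the results on the 7 genes was not tested. The knockdown was not checked, because no probe set was matched to the avl transcript (Syx7) alone.

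**Figure D1:**
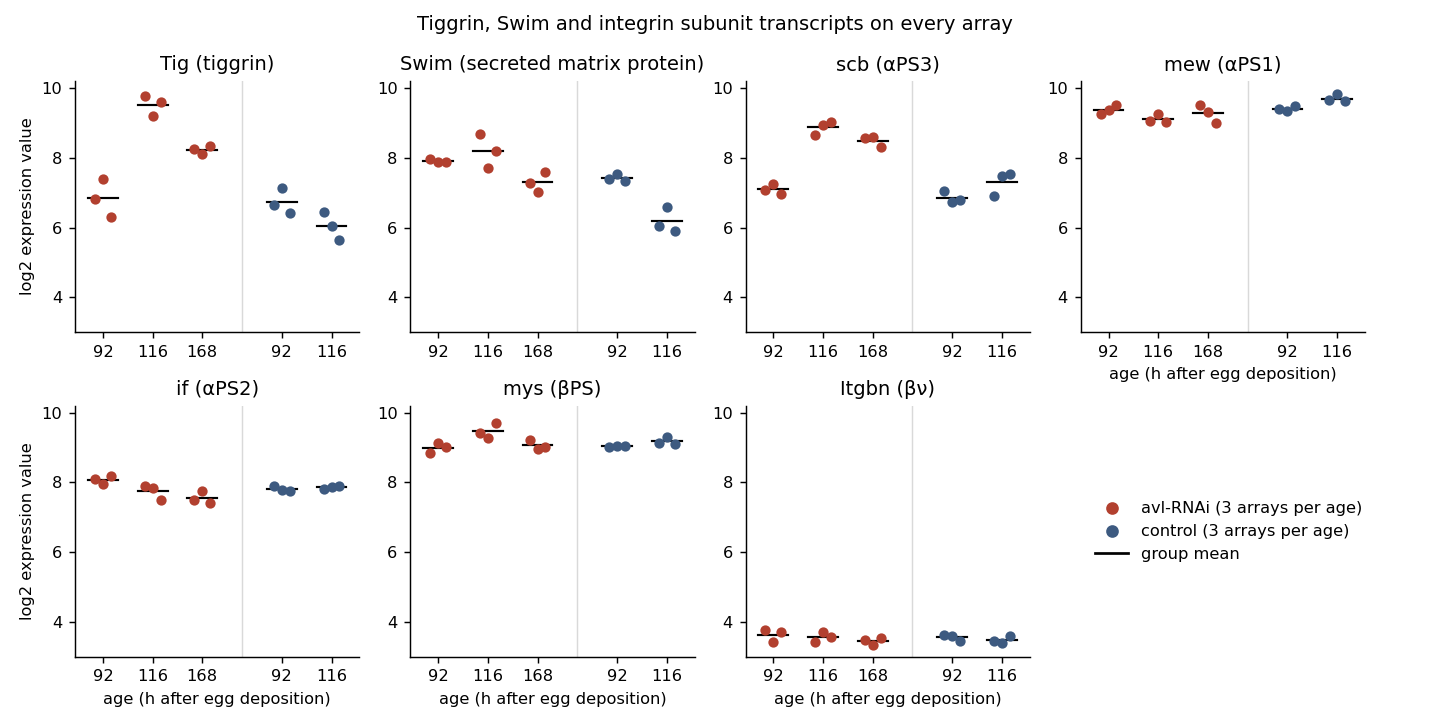
Log2 expression value of each gene on each of the 15 arrays against age in hours after egg deposition, with avl-RNAi arrays on the left of each panel, control arrays on the right and a bar at each group mean. Tig lies between 9.19 and 9.76 in avl-RNAi discs at 116 h, above every other array, and Itgbn lies between 3.34 and 3.75 throughout.

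The ligand Tig had the largest difference between the genotypes among the 7 genes at 116 h. It was 11.1-fold higher in avl-RNAi discs at that age, while at 92 h the genotypes overlapped. At 116 h Tig had log2 values of 9.76, 9.19 and 9.60 in avl-RNAi discs, against 6.44, 6.06 and 5.63 in control discs. All 3 knockdown arrays lay above all 3 control arrays. The log2 difference was 3.47 ± 0.27 (SE, limma, 3 arrays per group, adjusted p = 3.23e-07), the 15th largest of 11982. At 92 h Tig had 6.82, 7.40 and 6.31 in avl-RNAi discs, against 6.64, 7.12 and 6.43 in control discs. The highest and the lowest of these 6 arrays were both knockdown arrays. The difference at 92 h was 0.11 ± 0.27 with a 95% interval of -0.46 to 0.69 (limma, adjusted p = 0.891).

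Tig followed a different course with age in each genotype. It rose by 2.67 ± 0.27 between 92 h and 116 h in avl-RNAi discs (limma, adjusted p = 4.35e-06). In control discs its difference over the same span was -0.69 ± 0.27 and was not called (adjusted p = 0.0751). The interaction, which tests the change of the knockdown difference between the ages directly, was 3.36 ± 0.38 (limma, adjusted p = 3.4e-05). At 168 h Tig had 8.25, 8.11 and 8.34 in avl-RNAi discs, below every avl-RNAi array at 116 h and above every control array. It fell by 1.28 ± 0.27 on the log2 scale between 116 h and 168 h (limma, adjusted p = 0.0027) and at 168 h was still 4.58-fold higher than in control discs at 116 h (2.19 ± 0.27, adjusted p = 3.89e-05). The last comparison differs in age and in genotype, which cannot be told apart. The order of the group means was 9.52 ± 0.29 (SD, n = 3) in avl-RNAi discs at 116 h, 8.24 ± 0.12 at 168 h and 6.84 ± 0.54 at 92 h, then 6.73 ± 0.36 and 6.04 ± 0.40 in control discs at 92 h and 116 h. Neighbours in this order overlapped from the third place down.

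Tig was set beside the transcripts of tissues that make it. In bulk discs more cells of a type and more RNA per cell cannot be told apart. Of 15 haemocyte markers 1 rose (Col4a1) and 1 fell (NimC1) at 116 h, where 12.6% of all genes rose and 19.1% fell. The marker mean was 5.87, 6.21 and 7.11 on avl-RNAi replicates 1, 2 and 3, and lay between 6.10 and 6.52 in control discs. The median difference of the 15 markers was -0.013. The haemocyte gene Hml averaged 7.93 in avl-RNAi and 6.99 in control discs at 116 h and was not called (limma, adjusted p = 0.109). Its avl-RNAi arrays ran from 6.88 to 9.17 and its control arrays from 6.77 to 7.41. PPO1 and PPO2, prophenoloxidase genes of crystal cells, averaged 9.06 and 9.68 in avl-RNAi discs, against 8.45 and 8.83 in control discs, and were not called. PPO1 ran from 8.13 to 10.30 over the avl-RNAi arrays and from 8.10 to 8.93 over the control arrays. PPO2 ran from 8.80 to 10.94 and from 8.49 to 9.22. Among other uncalled markers Sr-CI differed by 0.63, He by -0.61, eater by -0.44 and NimC2 by -0.33. All single haemocyte markers here were named after their values were seen. The transcription factor genes lz and gcm averaged between 3.15 and 4.04 in all groups, below the array medians. Of 6 fat body markers 1 rose (FASN1, 1.14) and 1 fell (Fbp1, -2.36) at 116 h, beside the same shares of all genes, 12.6% and 19.1%. The 4 uncalled markers were apolpp (1.78), Fbp2 (1.35), Lsp2 (0.84) and Apoltp (0.61). The median difference of the 6 markers was 0.99. Their mean lay between 8.78 and 10.27 in avl-RNAi discs and between 7.96 and 9.70 in control discs. The part of haemocytes or fat body in the Tig difference was not tested. Marker means were fitted as covariates, but the haemocyte mean joins markers that moved both ways, and fat body was never fitted alone. With the haemocyte mean as a covariate the Tig difference at 116 h was 3.47 ± 0.28 (limma, adjusted p = 1.09e-06). It was 3.20 ± 0.51 with 3 covariates, the marker means of gut, muscle and fat body (adjusted p = 0.00352). With those 3 covariates the difference of Tig after 116 h was -0.79 ± 0.82 and no longer passed the test (limma, adjusted p = 0.856). Without them it was -1.28 ± 0.27, so with them the estimate was smaller and the precision lower. The part of each in the lost call was not tested.

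**Figure D2:**
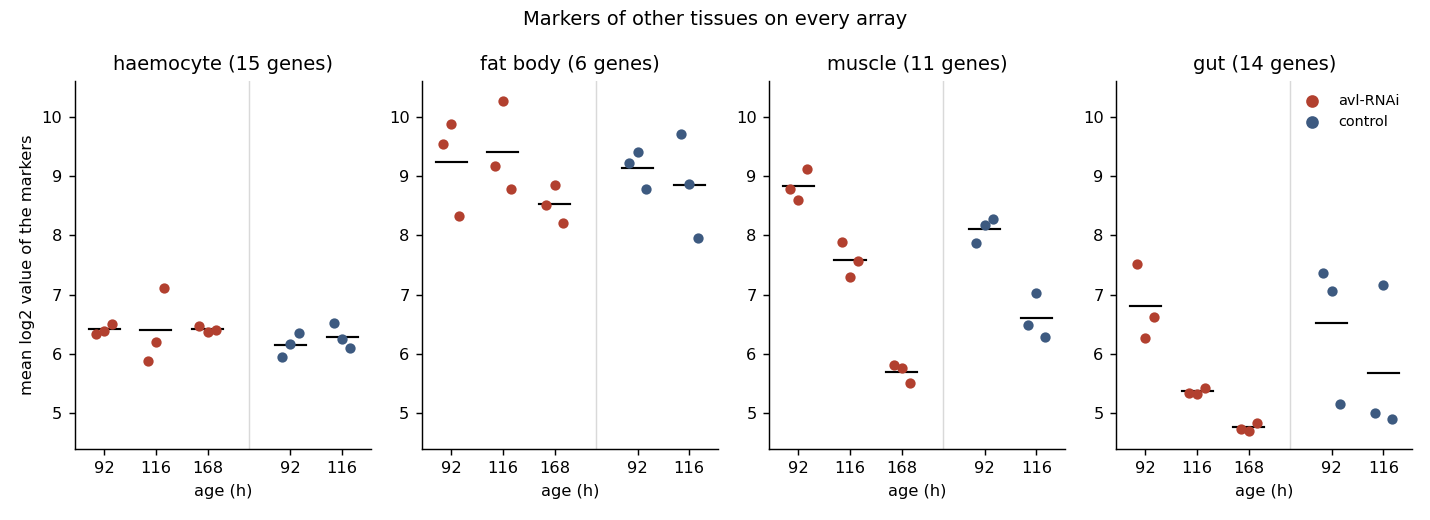
Mean log2 value of the measured markers of haemocytes, fat body, muscle and gut on each array against age in hours, with avl-RNAi arrays on the left of each panel, control arrays on the right and a bar at each group mean. Muscle markers fall with age in both genotypes, and the haemocyte mean overlaps between the genotypes at 116 h.

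Swim was 4.05-fold higher in avl-RNAi discs at 116 h. It had log2 values of 8.70, 7.69 and 8.19 in avl-RNAi discs at that age, against 6.04, 6.58 and 5.91 in control discs. The groups did not overlap. The difference was 2.02 ± 0.22 (SE, limma, adjusted p = 1.07e-05). At 92 h Swim had 7.96, 7.89 and 7.89 in avl-RNAi discs, against 7.39, 7.54 and 7.32 in control discs. These groups did not overlap either, but the difference of 0.50 ± 0.22 was not called (limma, adjusted p = 0.273). It was called when only the 6 arrays of this comparison were fitted (adjusted p = 0.0159).

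With age Swim fell by 1.24 ± 0.22 on the log2 scale between 92 h and 116 h in control discs (limma, adjusted p = 0.000823), with all 3 arrays at 116 h below all 3 at 92 h. Over the same span the difference in avl-RNAi discs was 0.28 ± 0.22 (adjusted p = 0.382), and the interaction was 1.52 ± 0.31 (limma, adjusted p = 0.00408). At 168 h Swim had 7.27, 7.03 and 7.60 in avl-RNAi discs. It fell by 0.89 ± 0.22 between 116 h and 168 h (limma, adjusted p = 0.00862) and remained 2.18-fold above control discs at 116 h (1.12 ± 0.22, adjusted p = 0.00189). The muscle marker mean was lower at 116 h than at 92 h in both genotypes. It was 6.60 ± 0.39 against 8.11 ± 0.21 in control discs and 7.58 ± 0.29 against 8.83 ± 0.26 in avl-RNAi discs (SD, n = 3). The part of muscle alone in the course of Swim was not tested. With the same 3 tissue means as covariates the difference over 92 h to 116 h was 1.09 in avl-RNAi discs and was not called. In control discs it was -0.42 ± 0.47 (limma, adjusted p = 0.746). With them the change after 116 h was 0.025 ± 0.60 (limma, adjusted p = 0.994). The SE of both was 0.22 without the covariates, so precision was lower with them. The Swim probe set is of the type that can respond to several transcripts, so related transcripts cannot be told apart.

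Among the alpha subunit genes scb rose and mew fell in avl-RNAi discs at 116 h. scb, which encodes αPS3, had 8.66, 8.94 and 9.03 in avl-RNAi discs, against 6.89, 7.48 and 7.52 in control discs. The groups were apart by more than the spread within either. Its difference was 1.58 ± 0.16 or 2.98-fold (SE, limma, adjusted p = 4.49e-06). At 92 h scb had 7.07, 7.25 and 6.96 in avl-RNAi discs, against 7.05, 6.73 and 6.79 in control discs, with overlapping arrays and a difference of 0.24 ± 0.16 (limma, adjusted p = 0.506). The interaction was 1.34 ± 0.22 (adjusted p = 0.000968).

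The level of scb then stayed high in the older knockdown discs. It had 8.56, 8.60 and 8.31 in avl-RNAi discs at 168 h, below the 3 arrays of 116 h, with a difference from them of -0.38 ± 0.16 that was not called (limma, adjusted p = 0.0949). Against control discs at 116 h it was 1.19 ± 0.16 higher (2.29-fold, limma, adjusted p = 8.8e-05). With the 3 tissue means as covariates this difference was 0.97 ± 0.27 (limma, adjusted p = 0.0515). Between 92 h and 116 h scb rose by 1.78 ± 0.16 in avl-RNAi discs (limma, adjusted p = 1.77e-06). In control discs its difference was 0.44 ± 0.16 (adjusted p = 0.0541), and it was called in 4 of 17 alternatives. Among these, 1 left out control 116 h replicate 1, whose scb value of 6.89 was the lowest of its group (0.65, adjusted p = 0.00281).

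mew, which encodes αPS1, had 9.05, 9.26 and 9.03 in avl-RNAi discs at 116 h, against 9.65, 9.82 and 9.63 in control discs. All 3 knockdown arrays lay below all 3 control arrays. The difference was -0.58 ± 0.12 (SE, limma, adjusted p = 0.00168), which made mew 1.497-fold lower. The other probe set of mew gave 8.04, 8.15 and 8.23 in avl-RNAi discs, against 8.71, 8.53 and 8.71 in control discs, and a difference of -0.51 ± 0.058 (limma over all probe sets with 1 symbol, adjusted p = 1.5e-05). At 92 h the probe sets gave -0.027 ± 0.12 and 0.094 ± 0.058, and neither was called (adjusted p = 0.948 and 0.478). The interaction of mew was -0.56 ± 0.17 (limma, adjusted p = 0.0341) and -0.60 ± 0.082 at the other probe set (adjusted p = 0.000181). For the first probe set the call ended in 8 of 23 alternatives, in 7 of them by leaving out 1 array, with differences from -0.56 to -0.48.

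In control discs mew showed a difference of 0.30 ± 0.12 between 92 h and 116 h (limma, adjusted p = 0.0815), and its other probe set rose by 0.38 ± 0.058 (adjusted p = 0.000266). In avl-RNAi discs over the same span the values were -0.26 ± 0.12 (adjusted p = 0.112) and -0.22 ± 0.058, the second of which was a fall (adjusted p = 0.00818). Between 116 h and 168 h in avl-RNAi discs mew differed by 0.16 ± 0.12 and was not called (limma, adjusted p = 0.375). Its other probe set rose by 0.35 ± 0.058 (adjusted p = 0.000513), without overlap of the arrays. The mean of both probe sets also rose (0.26 ± 0.067, limma, adjusted p = 0.012). At 168 h mew had 9.52, 9.32 and 8.99 in avl-RNAi discs, and the difference from control discs at 116 h was -0.43 ± 0.12 (limma, adjusted p = 0.0163). The other probe set showed -0.16 ± 0.058 in that comparison and was not called (adjusted p = 0.0703). The first probe set lost its call in 4 of 17 alternatives. With the 3 tissue means as covariates it was -0.17 ± 0.20 (limma, adjusted p = 0.713). The call also ended without avl-RNAi 168 h replicate 3 (-0.28, adjusted p = 0.0693) and without control 116 h replicate 2 (-0.36, adjusted p = 0.0704).

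if, which encodes αPS2, the partner that binds tiggrin, was not called at 92 h or at 116 h. It had 7.90, 7.85 and 7.50 in avl-RNAi discs at 116 h, against 7.82, 7.86 and 7.88 in control discs. Replicate 3 of the knockdown was the low one, and the other arrays overlapped. The difference was -0.11 ± 0.11 with a 95% interval of -0.33 to 0.12 (limma, adjusted p = 0.513). At 92 h if had 8.09, 7.97 and 8.19 in avl-RNAi discs, against 7.89, 7.79 and 7.76 in control discs, and the arrays were apart although the difference of 0.27 ± 0.11 was not called (limma, adjusted p = 0.204).

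With age if fell in avl-RNAi discs, by 0.33 ± 0.11 on the log2 scale between 92 h and 116 h (limma, adjusted p = 0.0234). In control discs the difference was 0.040 ± 0.11 (adjusted p = 0.84), and the interaction was not called (-0.38 ± 0.15, adjusted p = 0.106), so the 2 courses are not shown to differ. The fall in avl-RNAi discs lost its call in 5 of 17 alternatives. It was -0.18 ± 0.24 with the 3 tissue means as covariates (limma, adjusted p = 0.705). Without avl-RNAi 116 h replicate 3 it was -0.21 ± 0.093 (limma, adjusted p = 0.105). The call also ended with the compared groups alone (adjusted p = 0.081) and without avl-RNAi 92 h replicate 1 or 3. At 168 h if had 7.48, 7.75 and 7.41 in avl-RNAi discs, below the 3 control arrays at 116 h by 0.31 on average (-0.31 ± 0.11, limma, adjusted p = 0.0485). This call, just inside the threshold, ended in 9 of 17 alternatives.

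The beta subunit gene mys differed less between the genotypes at 116 h than Tig, Swim, scb or mew. mys, which encodes βPS, the partner of αPS1, αPS2 and αPS3, had 9.43, 9.27 and 9.71 in avl-RNAi discs at 116 h, against 9.14, 9.32 and 9.11 in control discs. Control replicate 2 lay inside the range of the knockdown arrays. The difference of 0.28 ± 0.10 missed the threshold (limma, 95% interval 0.059 to 0.51, adjusted p = 0.053) and was called in 7 of 17 alternatives, quantile normalization among them (0.30, adjusted p = 0.039). The other mys probe set gave 0.30 ± 0.13 (adjusted p = 0.111). At 92 h mys had 8.86, 9.12 and 9.02 in avl-RNAi discs, against 9.02, 9.05 and 9.06 in control discs, a difference of -0.044 ± 0.10 (limma, adjusted p = 0.891).

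Within avl-RNAi discs mys rose and then fell. It was 0.47 ± 0.10 higher at 116 h than at 92 h (limma, adjusted p = 0.00257) and fell by 0.40 ± 0.10 between 116 h and 168 h (adjusted p = 0.0104). The other probe set gave 0.55 ± 0.13 and -0.40 ± 0.13 and passed the test both times (adjusted p = 0.0052 and 0.0399). In control discs mys differed by 0.14 ± 0.10 between the ages (limma, adjusted p = 0.368), and the interaction was 0.33 ± 0.15 (adjusted p = 0.155). The mys probe set used is of the type that may cross-hybridize with related sequences. Both changes lost their calls by limma with the 3 tissue means as covariates. They were then 0.67 ± 0.22 (adjusted p = 0.0738) and -0.17 ± 0.34 (adjusted p = 0.938), against an SE of 0.10 without the covariates.

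Itgbn, which encodes βν, lay between 3.34 and 3.75 on all 15 arrays, below the median of every array, and was not called in any of the 7 comparisons. At 116 h it had 3.41, 3.71 and 3.56 in avl-RNAi discs, against 3.46, 3.40 and 3.59 in control discs. The difference was 0.076 ± 0.099 with a 95% interval of -0.14 to 0.29 (limma, adjusted p = 0.638). Values this low may lie at the background of the array, where a change cannot be read.

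**Figure D3:**
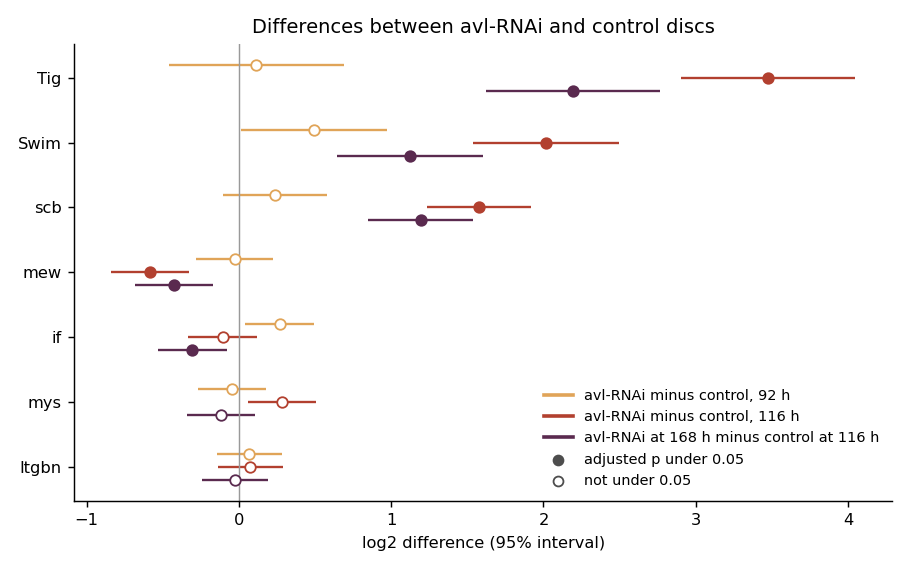
Log2 difference between avl-RNAi and control discs for the 7 genes, with 95% intervals, at 92 h, at 116 h and for avl-RNAi discs at 168 h against control discs at 116 h. Filled points have an adjusted p under 0.05, and the points for Tig, Swim and scb at 116 h lie at 3.47, 2.02 and 1.58.

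Of the 7 genes, 3 rose (Tig, Swim and scb) and 1 fell (mew) at 116 h, where 12.6% of all 11982 genes rose and 19.1% fell. At 92 h 0 of 7 were called by limma, where 2.44% of all genes rose and 2.04% fell, although Swim and if had an unadjusted p under 0.05. The interaction was called for 4 of 7, the same 3 higher and mew lower, where 7.62% of all genes were called higher and 10.5% lower. The comparison at 116 h and the interaction share arrays, so these counts are not independent of each other. The 7 genes were chosen with earlier results of these data known, so the counts are descriptions. Between 92 h and 116 h 3 of 7 rose and 1 fell in avl-RNAi discs, where 14.8% and 20.6% of all genes did. In control discs 0 of 7 rose and 1 fell (Swim), where 13.2% and 13.8% did. Between 116 h and 168 h 0 of 7 rose and 3 fell in avl-RNAi discs (Tig, Swim and mys), where 15.5% and 11.5% did. These counts use 1 probe set per gene, and the other probe set of mew rose over this span (0.35 ± 0.058, limma, adjusted p = 0.000513). At 168 h against control discs at 116 h 3 of 7 were higher and 2 lower, where 12.0% and 13.7% of all genes were. The median difference of the 7 genes was 0.28 at 116 h, against -0.017 over all genes.

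The adhesion complex list and the ligand and matrix lists below were chosen with earlier results of these data known. Their counts are therefore descriptions. Most measured genes of the integrin adhesion complex list rose with avl-RNAi at 116 h. Of 20 listed genes 17 were measured, and 10 rose and 2 fell, where 12.6% and 19.1% of all genes did. Their median difference was 0.34, against -0.017 over all genes. The 4 with the smallest adjusted p were Vinc (vinculin, 0.84 ± 0.051, adjusted p = 3.94e-08), Pax (paxillin, 1.09 ± 0.07), rhea (1.29 ± 0.085), which encodes talin, and Zasp52 (0.93 ± 0.061), which encodes a PDZ and LIM protein of muscle and adhesion sites, all by limma. rhea had 10.78, 10.79 and 10.63 in avl-RNAi discs at 116 h, against 9.30, 9.47 and 9.54 in control discs. The rest of the rises ran up to by (1.35 ± 0.14), the tensin gene, and included Ilk (0.56 ± 0.048), parvin (0.45 ± 0.051) and stck (0.33 ± 0.053), which form the kinase, parvin and PINCH complex beneath integrins. The falls were Fak (-0.32 ± 0.087), the focal adhesion kinase gene, and mspo (-0.26 ± 0.091), a gene of a secreted spondin. by, Ilk, parvin, stck, Fak and mspo were named after their values were seen.

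**Figure D4:**
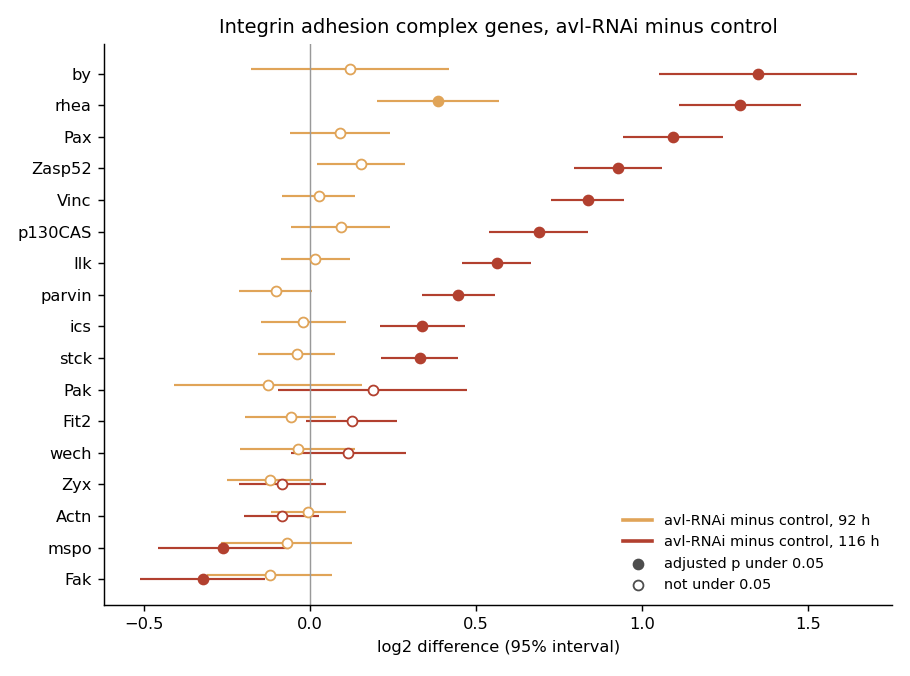
Log2 difference between avl-RNAi and control discs, with 95% intervals, for the 17 measured genes of the adhesion complex list at 92 h and 116 h. Filled points have an adjusted p under 0.05, and at 92 h only rhea is filled.

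At 92 h 1 of these 17 genes rose, rhea at 0.39 ± 0.085 (limma, adjusted p = 0.02), and 0 fell, where 2.44% and 2.04% of all genes did. The interaction was called higher for 10 and lower for 0 of the 17, where 7.62% and 10.5% of all genes were. With age 12 of the 17 rose and 1 fell in avl-RNAi discs between 92 h and 116 h, where 14.8% and 20.6% of all genes did. In control discs 2 rose and 2 fell, near the 13.2% and 13.8% of all genes. Between 116 h and 168 h 3 rose and 8 fell in avl-RNAi discs, where 15.5% and 11.5% did. At 168 h 8 were higher and 0 lower than in control discs at 116 h, where 12.0% and 13.7% of all genes were. The 8 included rhea (1.07 ± 0.085), Pax (0.73 ± 0.07), Zasp52 (0.45 ± 0.061) and Vinc (0.36 ± 0.051). Muscle also expresses talin, vinculin and Zasp52. At 116 h 8 of 11 muscle markers rose and 0 fell, where 12.6% and 19.1% of all genes did. The muscle marker mean was 7.58 ± 0.29 in avl-RNAi and 6.60 ± 0.39 in control discs (SD, n = 3). At 168 h the muscle mean in avl-RNAi discs was 5.69 ± 0.16. The part of muscle transcripts in the rises of these genes was not tested.

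Genes of laminins and other integrin ligands were called in both directions at 116 h. Of 9 listed genes for laminins and other proteins that bind integrins or act on their binding 8 were measured, and 2 rose, 1 fell and 5 were not called at 116 h, where 12.6% of all genes rose and 19.1% fell. The rises were mtg (2.26 ± 0.094, limma, adjusted p = 1.01e-09), which encodes a secreted lectin known from the synaptic matrix, and slow (1.75 ± 0.12, adjusted p = 1.05e-07), whose product binds thrombospondin at tendon cells. slow had 9.98, 9.53 and 9.52 in avl-RNAi discs at 116 h, against 7.86, 7.87 and 8.06 in control discs. LanB2, the laminin gamma chain gene, fell by 0.23 ± 0.07 on the log2 scale (adjusted p = 0.0223). The laminin alpha chain gene wb showed 0.24 ± 0.09 (adjusted p = 0.0642), with -0.10 and 0.18 at its other probe sets. LanA and LanB1, the other laminin chain genes, showed 0.040 ± 0.058 and 0.037 ± 0.061, and the thrombospondin gene Tsp showed -0.040 ± 0.057. At 92 h 0 of the 8 were called by limma, where 2.44% of all genes rose and 2.04% fell.

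Of 16 listed genes of matrix and matrix remodelling 13 were measured, and 6 rose and 2 fell at 116 h, where 12.6% and 19.1% of all genes did. The 4 with the smallest adjusted p were trol (perlecan, 0.91 ± 0.058), SPARC (0.88 ± 0.094), Ndg (nidogen, 1.25 ± 0.14) and the glypican gene dlp (0.58 ± 0.068). The rise of trol was seen at 1 of its 8 probe sets, and the other 7 lay between -0.055 and 0.10. At 168 h against control discs at 116 h Ndg (1.33 ± 0.14) and dlp (0.57 ± 0.068) were higher, SPARC was lower (-0.44 ± 0.094), and trol was at -0.042 ± 0.058. At 92 h 0 of the 13 were called by limma, where 2.44% of all genes rose and 2.04% fell.

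Across the 15 arrays the genes most like Tig were beg, Ku80, Tie, S6k and Rcd2, with Pearson correlations of 0.96 to 0.97. Tie encodes a receptor tyrosine kinase, S6k a kinase downstream of TOR and Ku80 a protein that binds DNA ends. These correlations are descriptions over arrays that share 5 groups. The genes most like Swim were Kank, cher, which encodes filamin, and Cpr47Eb, at 0.94 to 0.95, and those most like scb were Ptpmeg2, Sulf1 and smash, at 0.97 to 0.98. mew was most like Nop17l, wake and fwe, at 0.91 to 0.93, and mys most like TwdlV, obst-B and RhoL, at 0.88 to 0.90. if was most like ND-51, beta4GalT7 and Alg3, at 0.81 to 0.88, and Itgbn, whose values lay below every array's median, most like alka, EbpII and Cow, at 0.77 to 0.82. Among the members themselves Tig correlated with scb at 0.85, with Swim at 0.66 and with mew at -0.79.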

How the data were processed

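The deposited table held log2 expression values of 18952 probe sets on 15 one-colour arrays, normalized by the authors between arrays; the submitters' processing notes name Partek and limma without role or version. Background correction and normalization method were not given in the sources used here, and the log base was inferred from the values. Probe sets with 1 gene symbol (13647) were named through the platform annotation and current gene identifiers, and of several probe sets of a gene the one with the highest mean was used (11982 genes). The 402 probe sets with several symbols and the 4903 without a symbol were not used. Sequences were not analysed here.

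All 15 arrays were fitted with lmFit and eBayes of limma 3.58.1 (R 4.3.3), with 5 group means and 10 residual degrees of freedom. The script was checked on simulated data. Tests were 2-sided, Benjamini-Hochberg adjusted over all genes of each of 7 comparisons, and a gene rose or fell at adjusted p under 0.05. Values after ± are SE for differences and SD for group means. Precision is limited by the 3 arrays per group. The labels do not say whether the separately collected samples came from separate cultures. The p-values rest only on the spread between these samples within groups, pooled over the 5 groups and moderated across genes.

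The members, gene lists and marker lists were chosen with earlier results of these data known. Besides the members, up to 4 genes per list with the smallest adjusted p at 116 h were named, and the 5 genes (3 for members other than Tig) with the highest correlation, with genes that have only a CG number passed over. Alternatives were the compared groups alone, a replicate block, a trended and robust prior, median centring, quantile normalization, a filter on the lowest 25% or 50% of genes by mean, the mean of probe sets, tissue covariates, and arrays left out.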

Additional observations from a re-analysis of the deposited data

Results flagged for a closer look

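The difference between avl-RNAi and control discs changed between 92 h and 116 h for 4 of the 7 genes, by the interaction of genotype and age. The change was 3.36 ± 0.38 (SE) for Tig, 1.52 ± 0.31 for Swim and 1.34 ± 0.22 for scb, each higher at 116 h. It was -0.56 ± 0.17 for mew, lower at 116 h. The adjusted p-values by limma were 3.4e-05, 0.00408, 0.000968 and 0.0341. Single arrays were not tested for standing apart within their groups of 3.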

How the results depend on the processing

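Each of the 49 differences of the members was recomputed under the alternatives. Of 861 such values 781 kept direction and side of the threshold, 31 lost a call, 24 gained one and 25 changed sign. The differences of Tig, Swim, scb and mew at 116 h kept their calls under all 17 alternatives, with ranges of 3.20 to 3.67, 1.63 to 2.27, 1.37 to 1.98 and -0.93 to -0.52. Itgbn has no value without the lowest 25% or 50% of genes.

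With the gut, muscle and fat body covariates the members called numbered 2 between 92 h and 116 h in avl-RNAi discs, 0 in control discs, 0 between 116 h and 168 h, and 2 at 168 h against control discs at 116 h. All genes called then numbered 124 at 92 h, 947 at 116 h (533 higher and 414 lower), 1442 for the interaction, 1616 and 247 between 92 h and 116 h in avl-RNAi and control discs, 44 between 116 h and 168 h, and 1070 at 168 h against control discs at 116 h. The values that changed sign with these covariates were 0.058 for mew between 92 h and 116 h in avl-RNAi discs, 0.070 for if and 0.025 for Swim between 116 h and 168 h, 0.00045 for mys at 168 h, and -0.0048 for Tig at 92 h. The SE of Tig between 116 h and 168 h was 0.82 with these covariates and 0.27 without them. The cause of the lost calls and sign changes was not tested.

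In control discs between 92 h and 116 h 2 members were called with the mean of probe sets, with the compared groups alone, with quantile normalization and without the lowest 25% of genes, and 4 without the lowest 50%. Fewer genes are tested with such a filter. At 92 h 1 member was called with the haemocyte covariate (if) and 1 with the compared groups alone (Swim), and all genes called numbered 345 with the compared groups alone. Without control 92 h replicate 3 and control 116 h replicate 2 they numbered 257, and 3 members were called at 168 h against control discs at 116 h. Sign changes near 0 were mew at 92 h (0.033 with the mean of probe sets and 0.015 without those 2 arrays), Tig at 92 h (-0.037 without them) and the interaction of Itgbn (-0.030 with median centring).

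Leaving out 1 array gave 288 to 390 genes called at 92 h, where 537 were called in all. It gave 1 to 3 members in control discs between the ages and 3 to 5 at 168 h against control discs. Differences that then crossed 0 ranged from -0.16 to 0.38 for Tig, -0.10 to 0.039 for mew and -0.10 to 0.027 for mys at 92 h, and from -0.18 to 0.017 for if at 116 h. For Itgbn they ranged from -0.17 to 0.012 between 92 h and 116 h in avl-RNAi discs, -0.097 to 0.082 for the interaction and -0.070 to 0.033 at 168 h.

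The replicate number was not taken to pair samples: deviations from the group means of same-numbered arrays correlated between -0.41 and 0.50, with 9 of 30 pairs above 0.1. With the replicate block the Tig difference at 116 h was 3.47, and 1 call of a member ended (if at 168 h, -0.31, adjusted p = 0.0572).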
